A study of Homo sapiens with 6 samples.

Results

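Chromosome 7 was examined in Hi-C contact maps of 4 human cancer cell lines, as all pairs of 40-kb bins that lie within the chromosome. The bins of chromosome 7 numbered 3979 of the 75918 bins of the genome (hg19), and 3586 of them (90.1%) carried enough read pairs to be used. They filled 723 of 13086 usable blocks of 200 kb, a block being 5 neighbouring bins of which at least 3 were usable. The chromosome was selected on its read-pair coverage, which rose in steps along the long arm of OE33, and segments were chosen by that same coverage. The coverage of OE33 and its contact values without correction are therefore given as a description of what was selected and support nothing further.

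OE33 is an esophageal adenocarcinoma line, SW480 and SNU-C1 are colorectal adenocarcinoma lines, and HCC1954 is a breast adenocarcinoma line. The labels give no treatment for any of the 4, and chromatin was cut with MboI, an enzyme that recognises GATC. SNU-C1, HCC1954 and OE33 each had 1 map, while SW480 had 2 replicate maps and 1 map without a replicate number. That map held the sum of the 2 replicates in 99.9% of its 2122580 bin pairs on chromosome 7, so it stood for SW480 and the replicates served only to show the spread. The study's methods state that assays were run in duplicate, but how the other maps were combined from replicates was not given in the sources used here. Since 3 of the 4 lines had a single map, no test between lines was run, and all intervals are 95% Poisson intervals that cover counting error of read pairs only. For corrected values the limits of the read-pair count were scaled to the value. That leaves out the unequal weights of read pairs, so intervals of corrected values are approximate. No interval covers the difference between cultures of a line. Per the methods of the study, structural variants were used to authenticate the lines, which was not repeated here.

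Hi-C joins and sequences pairs of DNA fragments that lie close together in the nucleus. The number of read pairs that a region yields rises with the number of its copies in the cell, and also with how well its sequence can be mapped, its GC content and the density of cut sites. Iterative correction rescales the rows and columns of a map until each bin has the same total, which is meant to take out these differences before contacts are compared. The patterns that remain describe folding: active (A) and inactive (B) compartments are sets of regions that prefer their own kind, and insulation boundaries are points that few contacts cross and that delimit topologically associating domains. In tumor genomes a rearrangement joins sequences that are far apart on the reference, and amplified stretches of chromosome 7 in carcinomas often include the receptor tyrosine kinase gene MET.

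The deposited values were divided back into whole read pairs, which gave 8179253 pairs within chromosome 7 for OE33, 10663424 for SW480, 8178667 for SNU-C1 and 5137181 for HCC1954. These made up 9.15% of all pairs within chromosomes in OE33, against 7.99%, 7.11% and 5.49% in the others, and 7.99% and 8.0% in the SW480 replicates. The share was highest in OE33 and lowest in HCC1954. The maps were not alike in content. In the SW480 map 352916 of 29392095 values joined different chromosomes. The counts were 50195475 of 73847416 in OE33, 19500640 of 42221128 in SNU-C1 and 21345627 of 42369689 in HCC1954. What this does to corrected values of SW480 beside those of the other lines was not tested. The median block held 16790 read-pair ends in OE33 and 14338 in HCC1954, the line with the fewest on this chromosome. Over all chromosomes OE33 had fewer pairs than HCC1954, 89418425 against 93501178. No block's counting error was above 3.85%. The coverage of a block differed between the SW480 replicates by an SD of 0.02 on the log2 scale over the 723 blocks, and by at most 1.06-fold.

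OE33 carried extra coverage over a long, continuous stretch of the long arm that ended abruptly at 120.12 Mb. Coverage of a block was taken relative to the median autosomal block of the same map and then divided by the median of the other 3 lines, and a block counted as gained at a ratio of 1.5 or more and as lost at 0.67 or less. By this rule 192 of the 723 blocks (26.6%) were gained in OE33, where 12.5% of blocks were gained over all chromosomes, and 88 (12.2%) were lost, against 11.1% over all chromosomes. Since coverage chose the chromosome, nothing is read from these OE33 shares, and coverage cannot tell a gain in every cell from a larger gain in some cells. SW480 had 79 gained blocks (10.9%, against 6.71% over all chromosomes), SNU-C1 39 (5.39%, against 10.5%) and HCC1954 none (0 of 723, against 13.3%). HCC1954 instead had 276 lost blocks (38.2%, against 13.7% over all chromosomes). A lost block is low against the other lines, and not always against the autosomes of its own map. On the short arm 95 blocks were lost in HCC1954, although its median coverage there was 1.16 relative to its autosomes. From the centromere to 78 Mb 50 blocks were lost, with a median of 0.56. The 3 gained blocks nearest to the threshold had ratios of 1.5 to 1.52, and the 3 blocks just below it had 1.49.

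**Figure D1:**
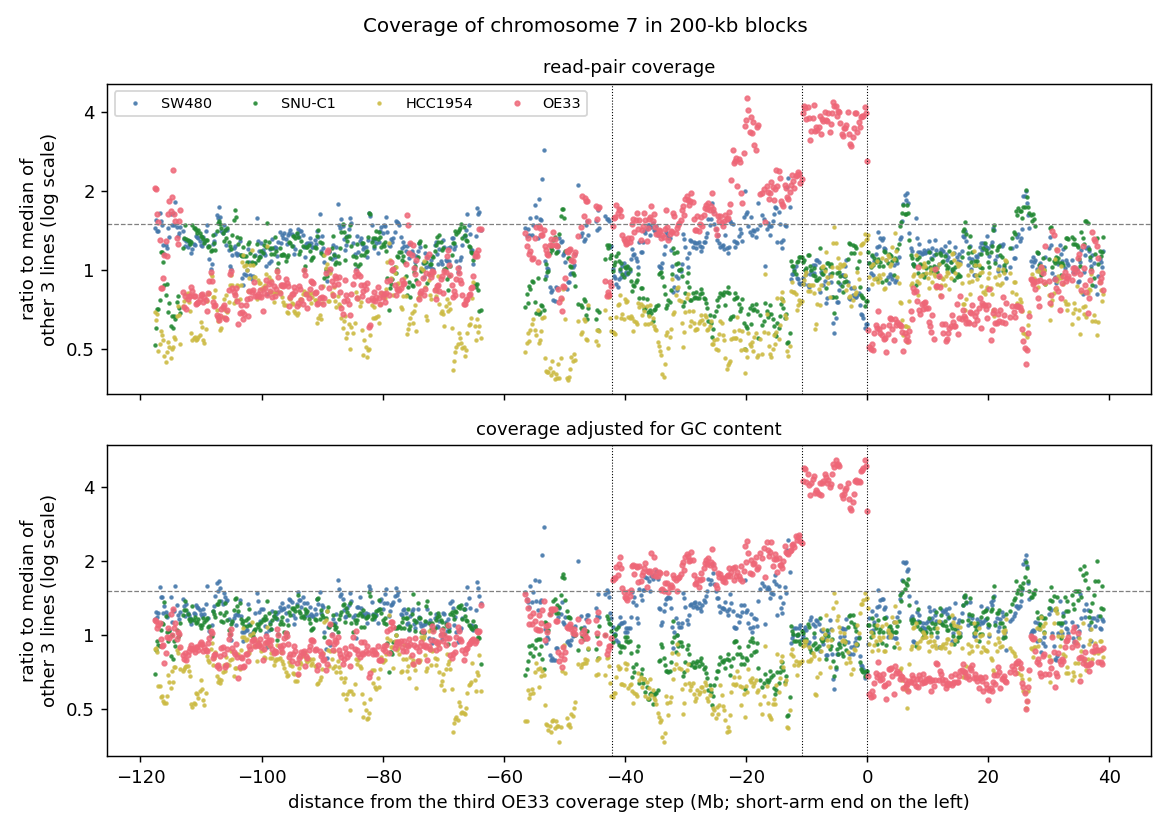
Coverage of chromosome 7 in 200-kb blocks as the ratio to the median of the other 3 lines (log scale), plotted against the distance in Mb from the third OE33 step, before (top) and after (bottom) adjustment for GC content. Each point is a block of 1 line, dotted lines mark the 3 steps and the dashed line the ratio of 1.5. OE33 rises in a staircase toward the third step, where its ratio falls below 1, and the peak left of the second step shrinks after the adjustment.

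Joined into runs of at least 5 blocks, the gained blocks of OE33 formed 7 segments. The largest reached from 92.8 to 120.2 Mb with a median ratio of 2.67 and held the starts of 216 protein-coding genes. The others lay at 4.6 to 6.4 Mb (1.64), 72.8 to 74.2 Mb (1.84), 78.2 to 79.6 Mb (1.65), 81.4 to 82.4 Mb (1.56), 83.6 to 85.0 Mb (1.57) and 89.0 to 91.8 Mb (1.76). Lost segments followed directly on the gained stretch, at 120.2 to 127.4 Mb with a median ratio of 0.58, and farther out at 132.4 to 137.0, 140.2 to 142.0 and 145.6 to 147.0 Mb.

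Part of the fine structure moved with base composition. Over 12363 blocks outside chromosome 7, the log2 coverage ratio of OE33 correlated with GC content at r = 0.51, against 0.12 in SW480, -0.37 in SNU-C1 and -0.20 in HCC1954. Blocks of each map were therefore also divided by the median of autosomal blocks of like GC content, an adjustment chosen after seeing the data, which brought r to 0.06 in OE33. After it 202 blocks of chromosome 7 (27.9%) were gained in OE33, against 7.46% over all chromosomes. The segments at 4.6 and 72.8 Mb were then gone, while the rest merged into 78 to 79.8 Mb (1.75) and 81 to 120.2 Mb (2.0). The block with the highest ratio, 100.2 to 100.4 Mb, holds EPO, which encodes erythropoietin, and TFR2, a transferrin receptor gene. Its ratio was 4.53 before the adjustment and 2.40 after it, and its GC content was 53.3%.

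**Figure D2:**
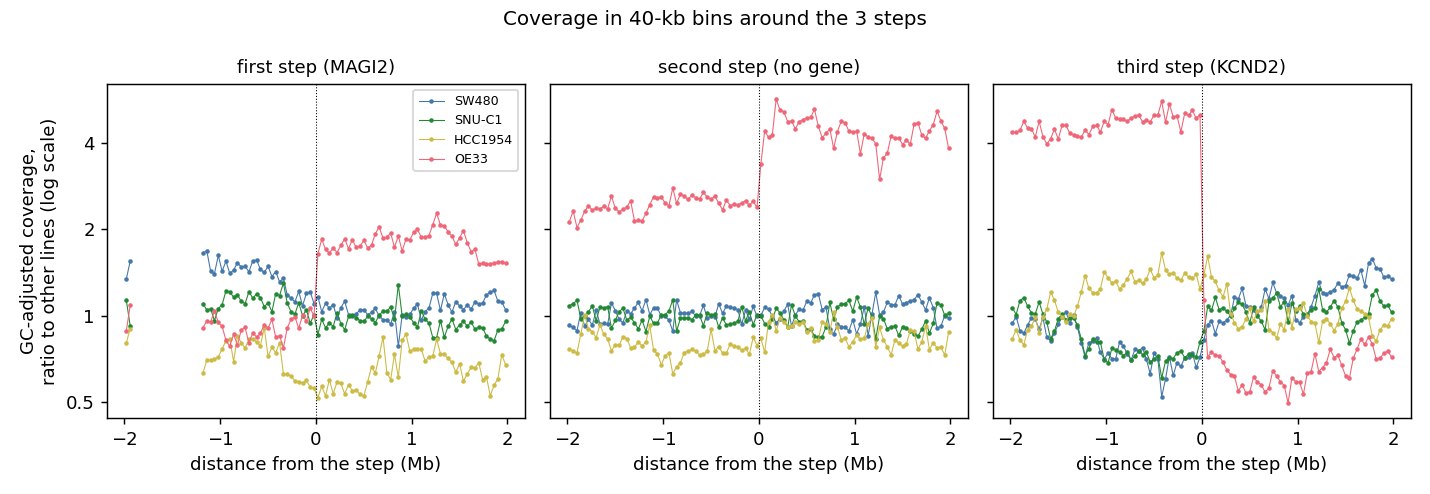
GC-adjusted coverage of 40-kb bins within 2 Mb of the 3 OE33 steps, as the ratio to the other lines (log scale), against the distance from the step in Mb. Each line joins the bins of 1 cell line. The OE33 line goes up at the first and the second dotted line and down at the third. The ratios of the other cell lines move too.

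Steps in coverage were located to 1 bin by comparing 25 usable bins (1 Mb) on either side, a rule set after the blocks had been seen. OE33 had 3 steps of at least 1.5-fold both in its own coverage and in the ratio to the other lines. The first lay at 78 Mb within MAGI2, a very long gene that encodes a synaptic scaffold protein, where GC-adjusted coverage relative to autosomes went from 1.43 to 2.61. The same bins went from 2.01 to 1.54 in SW480, from 1.59 to 1.49 in SNU-C1 and from 1.24 to 0.92 in HCC1954, so the 3 other lines were lower after the point and OE33 was higher. The second step, at 109.40 Mb, lay in no protein-coding gene, and OE33 went from 2.78 to 5.72. The values there were 1.13 and 1.31 in SW480, 1.12 and 1.30 in SNU-C1, and 0.87 and 1.20 in HCC1954.

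The third step was the steepest and the only one downward. It lay at 120.12 Mb within KCND2, which encodes a voltage-gated potassium channel, and OE33 dropped from 5.79 to 0.96, a 6.04-fold change in its own coverage and an 8.11-fold change in the ratio to the other lines. SW480 went from 1.17 to 1.57, SNU-C1 from 1.17 to 1.52 and HCC1954 from 1.64 to 1.52. Both SW480 replicates went from 1.16 or 1.17 to 1.57. No other line changed by as much as 1.5-fold at any of the 3 points. SW480 had 2 such steps of its own elsewhere, in a bin shared by CBLL1 and SLC26A3 at 107.40 Mb and in CNTNAP2 at 147.00 Mb, SNU-C1 had none and HCC1954 had 5.

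The promoters of MET and TSPAN12 are printed because these listed genes lie on either side of the third step, in blocks of high and of low OE33 coverage. The 250 bases before each annotated start are from GRCh37, for MET at chr7:116312000-116312249 on the plus strand and for TSPAN12 at chr7:120498457-120498706 on the minus strand, written 5′ to 3′ along the gene with the MboI site GATC in capitals.
MET: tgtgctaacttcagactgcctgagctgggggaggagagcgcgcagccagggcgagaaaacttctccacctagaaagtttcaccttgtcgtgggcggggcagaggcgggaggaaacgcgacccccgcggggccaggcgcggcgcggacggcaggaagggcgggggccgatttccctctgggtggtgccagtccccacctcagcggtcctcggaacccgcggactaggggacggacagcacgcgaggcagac
TSPAN12: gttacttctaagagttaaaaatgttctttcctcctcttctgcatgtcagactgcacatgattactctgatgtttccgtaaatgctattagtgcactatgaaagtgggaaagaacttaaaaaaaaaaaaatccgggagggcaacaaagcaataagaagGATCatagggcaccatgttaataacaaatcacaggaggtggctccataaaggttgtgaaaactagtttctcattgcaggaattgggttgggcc
The MET window is 68.4% GC and holds no GATC, and the TSPAN12 window is 39.2% GC and holds 1. GATC, which reads the same on both strands, occurs in 351 of the 933 windows of this length before protein-coding genes of chromosome 7 (37.6%). The median 40-kb bin holds 88 GATC sites between the second and the third step and 95 to 122 in the other regions.

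The 3 steps and the centromere divide the chromosome into 5 regions. The steps were drawn from OE33 coverage, so its levels and gained blocks within these regions restate that choice. Between the second and the third step, 54 blocks with the starts of 30 protein-coding genes, coverage relative to autosomes had a median of 5.19 in OE33 (lowest block 3.66, highest 6.56). It was 1.28 in SW480, 1.43 in SNU-C1 and 1.38 in HCC1954, and the highest block of these 3 lines was 2.21, below the lowest of OE33. All 54 blocks were gained in OE33, against 26.6% of all blocks of the chromosome, with a median ratio of 3.74, or 4.18 after GC adjustment. Between the first and the second step, the median of 155 blocks was 2.72 in OE33, against 1.93, 1.54 and 1.24, and 114 blocks were gained. Here the ranges overlapped, since SW480 blocks reached 3.44 and OE33 blocks began at 1.86.

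The other 3 regions of OE33 had medians between 0.80 and 1.34. On the short arm the median was 1.34 in OE33, against 1.65 in SW480, 1.58 in SNU-C1 and 1.16 in HCC1954. From the centromere to the first step it was 1.24, against 1.18, 1.08 and 0.56, with 10 of 59 blocks gained in OE33. After GC adjustment no OE33 block there reached a ratio of 1.5 (highest 1.47), and its median ratio was 1.06, below that of SW480 (1.18). Beyond the third step it was 0.80 in OE33, against 1.14, 1.19 and 0.99, with none of 187 blocks gained and 78 lost. The SW480 replicates differed most from the centromere to the first step, with medians of 1.18 and 1.20.

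MET, the receptor for hepatocyte growth factor, lay between the second and the third step, in a block whose coverage relative to autosomes was 6.22 in OE33. The same block stood at 1.78 in SW480 (replicates 1.79 and 1.77), 1.70 in SNU-C1 and 1.88 in HCC1954. The ratio was 3.49, or 3.75 after GC adjustment. CAV1 and CAV2, which encode the caveolins of membrane invaginations, had OE33 levels of 5.95 and 6.31 and ratios of 3.24 and 3.30. FOXP2, a forkhead transcription factor gene, had a ratio of 3.98, and IMMP2L, a long gene for a mitochondrial peptidase subunit that spans a fragile site, had 4.24. After GC adjustment the ratios of these 5 genes were 3.59 to 4.43.

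Ratios of genes between the first and the second step ranged from 1.30 to 4.07, and from 1.49 to 2.29 after GC adjustment. HGF, which encodes the ligand of MET, had an OE33 level of 2.89, against 2.32 in SW480, 1.92 in SNU-C1 and 1.52 in HCC1954, a ratio of 1.5 (GC-adjusted 1.90). CDK6, a kinase that drives entry into S phase, was just under the threshold at 1.49 (1.67). EPHB4, an ephrin receptor gene, and the mucin gene MUC3A share a block with a ratio of 4.07, which was 2.15 after GC adjustment. MUC12 and MUC17, also mucins of the gut surface, share a block at 3.37 (1.78), and CUX1, a homeodomain factor gene, had 3.01 (1.95). MCM7, a subunit of the replicative helicase, had 2.78 (1.81), TRRAP, a scaffold of histone acetyltransferases, had 2.67 (1.74), and the cytochrome genes CYP3A4 and CYP3A5 share 1.97 (1.90).

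Listed genes on the far side of the third step had ratios from 0.51 to 1.23. TSPAN12, a tetraspanin gene and the listed gene nearest to the step, had levels of 0.86 in OE33, 1.68 in SW480, 1.68 in SNU-C1 and 1.59 in HCC1954. Its ratio was 0.51. POT1, which encodes a telomere-binding protein, had 0.54, CNTNAP2, which encodes a neurexin-family adhesion protein, 0.54, BRAF, a serine/threonine kinase gene of the MAPK cascade, 0.59, and COPG2, a coat protein gene, 0.64. The morphogen gene SHH had the highest ratio there, 1.23 (GC-adjusted 0.77), and the homeobox genes EN2 and MNX1 had 0.97 (0.65) and 0.91 (0.76). On the short arm EGFR, a receptor tyrosine kinase, was at 1.65 in OE33, 1.75 in SW480, 1.81 in SNU-C1 and 1.57 in HCC1954, which gave a ratio of 0.95. The HOXA cluster fell in 2 blocks with ratios of 1.0 and 0.96.

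Over all lists, 26 of the 71 listed genes with a value lay in gained blocks of OE33 and 6 in lost blocks, and 24 were gained after GC adjustment. Over all blocks of the chromosome, 26.6% were gained and 12.2% lost, and 27.9% were gained after GC adjustment. The median ratio of listed genes was 1.0, and that of all blocks was 0.93. Genes that share a block count more than once here. Receptor and signalling genes were gained in 7 of 14 cases (6 after adjustment), epithelial and detoxification genes in 7 of 12 (5), cell cycle, repair and chromatin genes in 5 of 12 (6), imprinted genes in 2 of 4 (2) and developmental genes in 3 of 24 (3). Of 5 long genes of fragile sites, IMMP2L and MAGI2 were gained and CNTNAP2 was lost. RAC1, a small GTPase gene, and the tight-junction genes CLDN3 and CLDN4 were gained only without the adjustment, with ratios of 1.54, 1.91 and 1.60 that became 1.0, 1.01 and 1.04. DPP6 had too few usable bins for a value.

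Contacts were compared as observed over expected (O/E), where the expected value is the mean over all bin pairs of the same distance on all chromosomes of the same map. Values without correction (raw) carry the coverage of both ends, and corrected values are divided by a factor for either bin. How much of the coverage stays in corrected values was not tested. Among pairs at least 2 Mb apart between the second and the third step, raw O/E was 10.9 in OE33, 1.48 in SW480, 1.47 in SNU-C1 and 1.32 in HCC1954. After correction it was 1.5 (95% interval 1.49 to 1.5), against 1.64, 1.18 and 1.07, so OE33 fell between SW480 and the other 2 lines. Between this region and the one from the first to the second step, raw O/E was 5.61 in OE33 and 1.22 to 1.45 in the others. Corrected values were 1.18 in OE33, 1.27 in SW480, 0.97 in SNU-C1 and 1.08 in HCC1954.

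**Figure D3:**
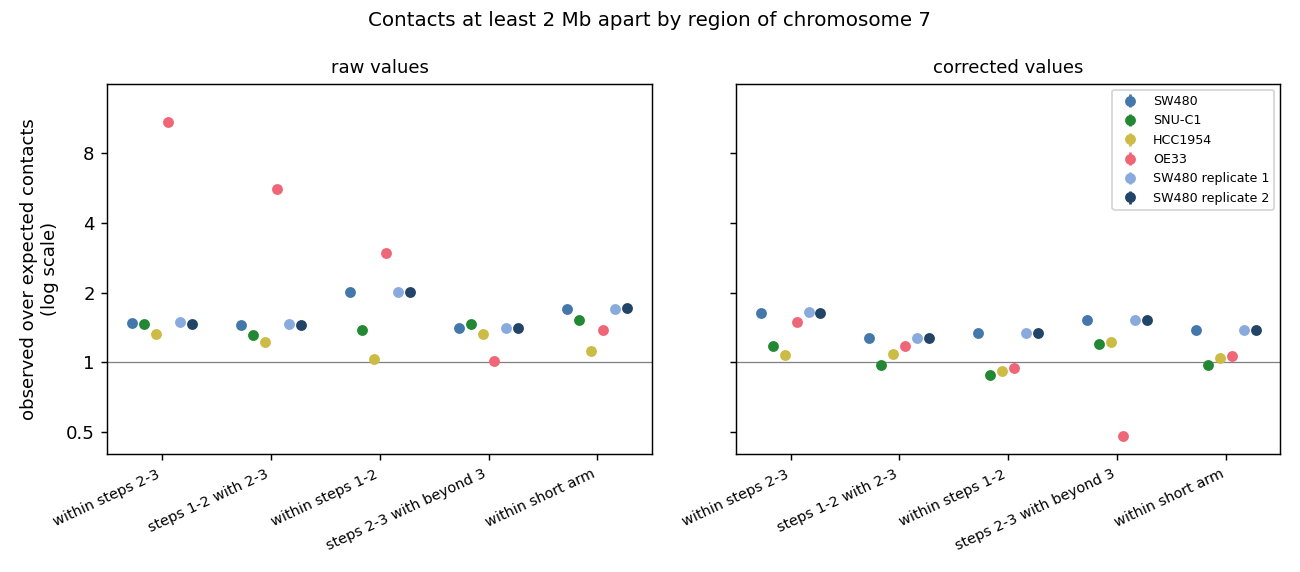
Observed over expected contacts at least 2 Mb apart (log scale) within and between regions of chromosome 7, without correction (left) and corrected (right), with 1 point per map and 95% Poisson bars that are smaller than the points. On the left OE33 stands far above the other maps in the first 3 groups. On the right it lies among them in the groups shown, except for contacts between the stretch from step 2 to 3 and the chromosome beyond step 3, where it is at 0.48 and the 3 other lines are at 1.20 to 1.52.

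Corrected contacts of OE33 were the lowest of the 4 lines in several other region pairs. The short arm met the region between the first and the second step at 0.71 in OE33 and 0.86 to 1.19 in the others, and the stretch from the centromere to the first step at 0.59 and 0.67 to 0.90. That stretch met the region between the first and the second step at 0.57 in OE33 and 0.70 to 1.31 in the others.

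Among the pairs of the 5 regions, the lowest corrected value of OE33 was for contact across the third step. Between the high stretch and the chromosome beyond it, corrected O/E was 0.48 (0.48 to 0.49) in OE33, 1.52 in SW480, 1.20 in SNU-C1 and 1.22 in HCC1954. Without correction, where the coverage that chose the step enters, the values were 1.01, 1.41, 1.46 and 1.32. In squares of 2 Mb on either side of the step, 10136 read pairs of OE33 crossed it, with corrected O/E of 0.457 (0.449 to 0.466). SW480 had 1.13 there (replicates 1.13 and 1.14), SNU-C1 1.08 and HCC1954 1.24. Raw values in the same squares were 0.88 in OE33, 0.99 in SW480, 1.30 in SNU-C1 and 1.76 in HCC1954.

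Corrected contact across the first and the second step was also lowest in OE33. Across the second step corrected O/E was 0.80 in OE33, against 1.72 in SW480, 1.31 in SNU-C1 and 1.47 in HCC1954, while raw O/E was 3.52 in OE33 and 1.32 to 1.49 in the others. Across the first step it was 0.73 in OE33 and 1.0 to 1.28 in the others, with raw values of 1.35 in OE33, 1.66 in SW480, 1.62 in SNU-C1 and 1.03 in HCC1954. Raw contact across a step was also divided by the geometric mean of the contacts within the 2 sides. This gave 0.80, 0.96 and 0.45 in OE33 at the first, the second and the third step, against 1.13 to 1.32, 1.18 to 1.38 and 0.88 to 1.56 in the others. The corrected version was 1.27, 1.27 and 0.43 in OE33, against 1.27 to 1.45, 1.53 to 1.83 and 0.95 to 1.20, and at the first step OE33 and SW480 had the same value to 2 decimals. Correction divides by the total of each bin, which in OE33 was highest between the second and the third step, and the part of that division in these ratios was not tested.

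**Figure D4:**
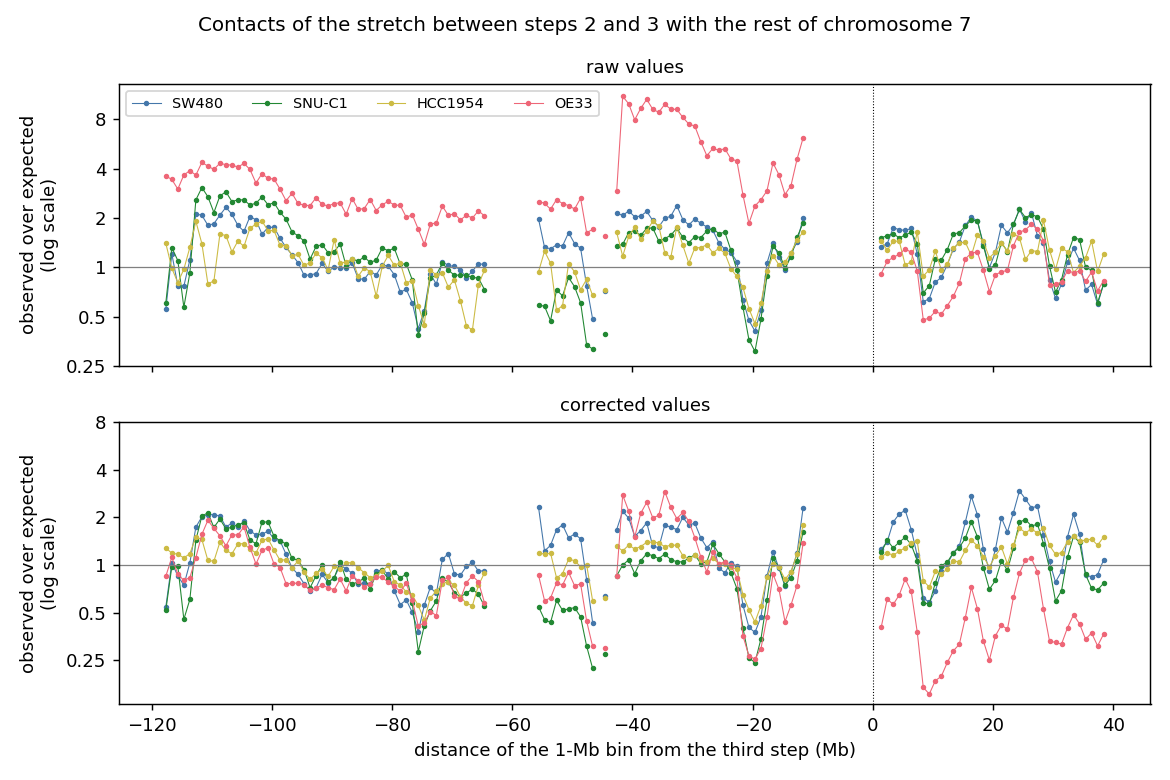
Contacts of the stretch between the second and the third step with each 1-Mb bin of the rest of chromosome 7, as observed over expected (log scale), without correction (top) and corrected (bottom), against distance from the third step in Mb. Each line is 1 cell line, and gaps are bins with too few usable 40-kb bins or that overlap the stretch itself. Right of the step OE33 is the lowest line in 38 of 38 corrected bins and 24 of 38 raw bins, and just after the first step it is the highest.

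Seen from the high stretch, corrected OE33 contacts with the distal arm were below those of the other lines, though not everywhere below the expected value. Of 38 bins of 1 Mb beyond the third step, OE33 was the lowest line in 38 after correction and in 24 without it. Its median corrected O/E there was 0.40, against 1.36 in SW480, 1.16 in SNU-C1 and 1.29 in HCC1954. In OE33 it was lowest, 0.15, at 9.38 Mb past the step and highest, 1.10, at 26.38 Mb. In the first 8 Mb after the first step, a stretch set after seeing the profile, OE33 was the highest line in 7 of 8 corrected bins. The median there was 2.15 in OE33, 1.72 in SW480, 1.09 in SNU-C1 and 1.32 in HCC1954, and without correction it was 9.60, 2.04, 1.60 and 1.60. In the rest of the way to the second step OE33 was the highest line in 5 and the lowest in 10 of 23 corrected bins, with a median of 0.90, against 1.03, 1.05 and 1.02. On the short arm OE33 was the highest in 54 of 54 raw bins but in none of 54 corrected bins, where its median was 0.80 and those of the other lines were 0.87 to 0.96.

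Contacts that link different gained segments of OE33 were then summed over the 21 pairs of its 7 segments. Corrected O/E was 1.11 (1.10 to 1.11, from 248003 read pairs) in OE33, 1.31 in SW480 (1.32 in both replicates), 0.92 in SNU-C1 and 0.96 in HCC1954. OE33 thus lay below SW480 and above the other 2 lines. Without correction the values were 3.94, 1.77, 1.34 and 1.06. By pair, OE33 was the highest line in 19 of 21 without correction, and after correction in 4 of 21, with 5 in which it was the lowest.

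The 4 pairs in which corrected OE33 contacts were the highest all lay within the long arm beyond the first step. The segment at 78.2 Mb met that at 83.6 Mb at 1.79 (1.74 to 1.84) in OE33, 1.16 in SW480, 1.33 in SNU-C1 and 1.07 in HCC1954. It met the large segment at 92.8 Mb at 1.57, against 1.47, 0.93 and 1.04. The segment at 81.4 Mb met that at 83.6 Mb at 1.07, against 0.99, 0.94 and 0.80, and the large one at 1.42, against 1.33, 0.91 and 1.01. The 5 pairs in which OE33 was lowest all joined a segment before the first step to one after it, such as 72.8 with 78.2 Mb at 0.13 in OE33, 0.30 in SW480, 0.24 in SNU-C1 and 0.38 in HCC1954. The outcome depended on how segments were drawn: with a threshold of 2, which left 3 segments between 97.6 and 120.2 Mb, corrected O/E was 0.39 in OE33, 0.67 in SW480, 0.49 in SNU-C1 and 0.64 in HCC1954. With the 2 GC-adjusted segments it was 1.78, 1.81, 1.26 and 1.22.

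Single pairs of 200-kb blocks at least 2 Mb apart were called line-specific where O/E reached 4 and, with 0.5 added to every value, exceeded each other line 4-fold or more. Of 254764 pairs on chromosome 7, corrected values gave 27 calls in OE33, where 0.109% of pairs were called over all chromosomes. SW480 had 200 (0.0453% over all chromosomes), SNU-C1 93 (0.205%) and HCC1954 478 (0.245%). The order of the lines changed with 1 SW480 replicate in place of the pool and with another expected value, as given below with the alternatives. Without correction OE33 had 2325 (0.107% over all chromosomes), SW480 164 (0.0388%), SNU-C1 275 (0.256%) and HCC1954 126 (0.235%). Chromosome 7 held 48.4% of all raw calls of OE33 but 0.552% of its corrected calls, with 5.66% of the pairs tested.

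The raw calls of OE33 lay mostly in the regions of raised coverage. Raw values carry the coverage by which these regions were drawn, so this restates that choice. Of the 2325, 1306 (56.2%) joined the region between the first and the second step to that between the second and the third, 735 (31.6%) lay within the latter and 179 joined it to the short arm. Of the 27 corrected calls, 23 joined the short arm to the chromosome beyond the third step, over distances at which a call rested on few read pairs (median 5). Most corrected calls of the other lines joined the same regions, 132 of 200 in SW480, 67 of 93 in SNU-C1 and 355 of 478 in HCC1954. With at least 10 read pairs, 3 corrected calls were left in OE33, 55 in SW480, 5 in SNU-C1 and 3 in HCC1954, so most corrected calls of every line rested on fewer.

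These single pairs are given as values only, since with blocks of 400 kb no pair was called in OE33 and 1 in SW480. On maps simulated from raw values, the rule called 33 unplanted pairs with at least 10 read pairs in OE33. Corrected values were not simulated, so that count cannot be set against the 3 corrected calls of OE33. The best counted of these 3 joined the block at 85.2 Mb with that at 118.2 Mb, both inside the stretch of raised coverage and outside protein-coding gene starts. It held 119 read pairs with corrected O/E of 7.26 (6.01 to 8.69), and the highest other line had 1.41. The others joined SDK1, an adhesion gene, at 4.0 Mb with a block at 37.8 Mb that holds the Wnt antagonist gene SFRP4 (43 read pairs, 8.59, 6.22 to 11.6), and 10.4 Mb with 54.2 Mb (28 read pairs, 9.93, 6.60 to 14.3). In SW480 a block with IL6, a cytokine gene, and STEAP1B at 22.6 Mb met one with STEAP1 and STEAP2 at 89.6 Mb (30 read pairs, 9.84, 6.64 to 14.0, the highest other line 0.80).

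Over the whole chromosome, compartments of OE33 were slightly closer to those of the other lines than those lines were to each other. The first eigenvector of the correlation of corrected O/E was taken per arm and turned so that A has more genes. OE33 had 311 of 723 blocks (43.0%) on the A side, SW480 353 (48.8%), SNU-C1 300 (41.5%) and HCC1954 338 (46.7%). In 12 blocks (1.66%) OE33 was on the other side from all 3 lines, where 2.8% of blocks were over all chromosomes. The count was 55 (7.61%, against 5.04%) in SW480, 38 (5.26%, against 6.13%) in SNU-C1 and 39 (5.39%, against 6.58%) in HCC1954. These counts depended on the settings, and without correction the order of the lines changed, as given below with the alternatives. Eigenvectors correlated across the 723 blocks at r = 0.83 to 0.86 between OE33 and the others, at 0.77 to 0.80 among the others, and at 1.0 between the SW480 replicates, which differed in sign in 13 blocks. By region, r of OE33 with the mean of the other lines was lowest between the second and the third step, 0.78 over 54 blocks, and 0.89 to 0.96 in the other 4 regions. The other lines had 0.67 to 0.83 between the second and the third step.

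The high stretch between the second and the third step was mostly B in all lines. OE33 had 4 of 54 blocks on the A side there, SW480 9, SNU-C1 12 and HCC1954 12, and the median eigenvector was -1.34 in OE33, -1.34 in SW480, -1.40 in SNU-C1 and -0.69 in HCC1954. Only 1 of the 54 blocks was B in OE33 alone. The MET block was on the A side in all 4 lines, with values of 0.30 in OE33, 0.84 in SW480, 0.60 in SNU-C1 and 1.22 in HCC1954. The FOXP2 block was on the B side in all 4.

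Blocks with another side in OE33 were few and scattered. The longest run was 12 to 12.6 Mb, with TMEM106B, a lysosomal protein gene, and VWDE, on the A side with a mean of 0.37 in OE33, against -0.86 in SW480, -0.62 in SNU-C1 and -0.49 in HCC1954. NRCAM, a neuronal adhesion gene at 107.8 to 108.2 Mb, was B at -0.22 in OE33 and at 0.32, 0.10 and 0.34 in the others, and PLXNA4, a semaphorin receptor gene at 132.0 to 132.4 Mb, was A at 0.49, against -0.08, -0.51 and -0.20. Of 71 listed genes, CDK13 alone lay in a block that was B only in OE33 (-0.08), and none in a block that was A only in OE33. Longer runs were found in SW480, where 16.6 to 18.0 Mb with the secreted-protein genes AGR2 and AGR3 and the aryl hydrocarbon receptor gene AHR was B at -0.34, against 0.84, 1.02 and 0.85. SW480 was A over SDK1, and HCC1954 was B at 155.6 to 156.6 Mb with SHH (-0.56, against 0.92, 0.98 and 0.67).

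Insulation boundaries were called on corrected maps with a 1-Mb window, and those of different maps were shared when within 2 bins. OE33 had 126, of which 85 were found in all 3 other lines and 13 in none of them (10.3% over all chromosomes). SW480 had 135 with 8 in no other line (7.21% over all chromosomes), SNU-C1 129 with 6 (9.16%) and HCC1954 135 with 10 (9.69%). The SW480 replicates shared 126 of 136 and of 132, 92.6% and 95.5% of their boundaries. Of the 13 in OE33, 7 lay beyond the third step, 5 on the short arm and 1 between the second and the third step.

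The strongest unshared boundary of OE33 was at the third step itself. Insulation uses corrected values, which divide by bin totals, and these change at the step that coverage chose. In the 2-Mb squares above, OE33 contact across the step was 0.88 raw and 0.457 corrected. Relative to the geometric mean of contacts within the 2 sides, it was 0.45 raw and 0.43 corrected. The other lines had 0.88 to 1.56 raw and 0.95 to 1.20 corrected on that measure. The part of the division by bin totals in this boundary and in the scores around the step was not tested. The boundary lay at 120.16 Mb, 40 kb past the step, with a strength of 1.5, while the median strength of OE33 boundaries on the chromosome was 0.75. The insulation score there was -1.16 in OE33, -0.50 in SW480 (both replicates -0.50), -0.23 in SNU-C1 and -0.13 in HCC1954. The nearest boundary of the other lines was 240 kb past the step in SW480 and SNU-C1 and 280 kb past it in HCC1954, with strengths of 0.90, 0.87 and 1.02. At the second step OE33 had a boundary 40 kb on, with a strength of 0.56, and so did HCC1954 (0.43), while SW480 had one at 80 kb (0.32) and SNU-C1 at 280 kb (0.52). At the first step all 4 lines had their nearest boundary in the same bin, 440 kb before it.

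Over the whole chromosome the insulation scores of OE33 were the least like those of the other lines, while by region this held only between the second and the third step. Across 3446 bins, which overlap in their windows, r was 0.75 to 0.85 between OE33 and each other line, 0.89 to 0.93 among the other 3 and 1.0 between the SW480 replicates. Between the second and the third step r of OE33 with the mean of the others was 0.69 over 268 bins, against 0.81 to 0.93 for the other lines. In the other 4 regions it was 0.88 to 0.92 for OE33 and 0.86 to 0.91 for SW480, which was slightly below OE33 in each. The median score was -0.26 between the second and the third step in OE33, 0.15 in SNU-C1, 0.11 in HCC1954 and near 0 in SW480, and beyond the third step 0.16 in OE33 and -0.10 to -0.02 in the others. OE33 thus had the lowest median of the 4 lines before the step and the highest beyond it.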

How the data were processed

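In situ Hi-C was measured in SW480, SNU-C1, HCC1954 and OE33. According to the study's methods and the submitters' processing notes, BWA-MEM aligned the reads to hg19 and Picard removed duplicates (versions not given in the sources used here). Next, the authors deposited iteratively corrected contact signal per pair of 40-kb bins. Each deposited signal value equals read pairs divided by a factor for either bin, and these factors were solved from the files. On chromosome 7, 100% of bin pairs of every map up to 20.5 read pairs came out whole within 0.02, and these read pairs gave coverage and raw values.

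Bins under 0.25 of the median coverage were left out. O/E used the distance mean over all chromosomes, smoothed beyond 5 Mb over 10% of the distance. Boundaries had a strength of at least 0.1 with a 200-kb delta. The compartment side of each arm was set by gene starts of the GRCh37 annotation. Groups came from the cell line labels. Members, lists and thresholds were chosen with earlier results of these data known. All 72 genes of 6 lists on signalling, cell cycle, development, epithelium, imprinting and fragile sites were looked up and enter the counts where they had a value. Those named with values are a selection from them made after their values were seen, as are the genes named in the highest block, at steps, in single called pairs and in compartment runs. Alternatives were the thresholds, the expected value, correction, block size, windows, the low-coverage limit and each SW480 replicate in place of the pool. Those on GC content and on the third step were added after seeing the data. Scripts were tested on simulated data, where the rule for block pairs, run on raw values only, found most planted pairs but also made false calls. Python 3.11.15 with numpy 2.4.6, scipy 1.17.1 and pandas 2.3.3 was used.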

Additional observations from a re-analysis of the deposited data

How the results depend on the processing

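No paired analysis was possible because only SW480 has replicates and no result comes from a test. The 192 gained blocks of OE33 became 99 with a threshold of 2 and stayed within 1.5 times of 192 under the other alternatives. Linking contacts of OE33 (1.11 corrected) were 3.94 without correction, 1.19 with the expected value of chromosome 7, 1.78 with GC-adjusted segments, and turned to 0.386 with segments at a threshold of 2. OE33 contacts between the high stretch and the chromosome beyond the third step, at all distances (0.481), were 0.524 with the expected value of chromosome 7 and turned to 1.0 without correction. Line-specific pairs depended on most settings. Without correction OE33 had 2325, SNU-C1 275 and HCC1954 126, with the expected value of chromosome 7 there were 24 in SW480, 240 in HCC1954 and 79 in OE33, and with 400-kb blocks 1, 0, 1 and 0 in SW480, SNU-C1, HCC1954 and OE33. With at least 10 read pairs the counts were 55, 5, 3 and 3 in the same order, and at 2-fold 1690, 796, 2488 and 416. With 1 SW480 replicate in place of the pool they were 670 to 710, 118 to 131, 530 to 539 and 34 to 41. Blocks on the other compartment side numbered 19 in SW480, 136 in HCC1954 and 95 in OE33 without correction, and 4 in OE33 with the whole chromosome. With 400-kb blocks they numbered 25, 23 and 6 in SW480, HCC1954 and OE33. The chromosome holds fewer blocks of 400 kb than of 200 kb, and fewer pairs of them. Counts at 400 kb are therefore not on the same scale as those at 200 kb. Unshared boundaries numbered 17 in SW480 and 12 in SNU-C1 with a 480-kb window, 10 in SNU-C1 without correction, and 6 in HCC1954 with a strength of 0.2. Of 26 listed genes gained in OE33, 23 stayed gained with GC adjustment, 25 with the own autosomal median alone (under which 44 were gained in all), 25 with read pairs at least 1 Mb apart, and 26 with the other coverage limit or either SW480 replicate. The ETV1 block turned from 0.66 to 1.26 with the own autosomal median alone. The causes of these changes were not tested. Most corrected calls of single block pairs had under 10 read pairs.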

Other observations

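The SW480 maps held few values between chromosomes and were not read for them. Pairs that join chromosome 7 to other chromosomes were read in SNU-C1, HCC1954 and OE33 as 1-Mb blocks, and lie outside the comparisons above. Distance does not apply to them. Their expected value was the mean over all usable bin pairs that join chromosome 7 to other chromosomes in the same map. Values of the regions of a map are thus relative to each other, and a high value in any region lowers the rest. In OE33 the high stretch between the second and the third step had the strongest such contacts. The block at 114 Mb met chromosome 1 at 59 Mb with corrected O/E of 75.9 (95% Poisson interval 73.6 to 78.3, 4006 read pairs), against 0.32 in SNU-C1 and 0.58 in HCC1954. The block at 115 Mb met chromosome 5 at 2 Mb at 62.8 (60.5 to 65.0, 2990 read pairs), against 0.94 and 1.15. The block at 99 Mb, between the first and the second step, met chromosome 13 at 101 Mb at 27.5 (25.8 to 29.3, 968 read pairs), against 0.89 and 1.07.

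By region, the corrected O/E of OE33 with all other chromosomes was 1.39 between the second and the third step, 1.17 between the first and the second, 1.09 from the centromere to the first, 0.93 on the short arm and 0.82 beyond the third step. The region between the second and the third step stood at 0.77 in SNU-C1 and 0.82 in HCC1954. Without correction the OE33 values were 2.48, 1.55, 1.04, 0.74 and 0.47 in the same order of regions. The part of the division by bin totals in the corrected values was not tested. The highest value of any line was in SNU-C1, where the block at 2 Mb met chromosome 20 at 35 Mb at 811 (790 to 833, 5421 read pairs), against 2.66 in HCC1954 and 3.12 in OE33.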
